A study of Mus musculus with 12 samples.

Results

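The 7 genes described here are Hmgcs1, Idi1, Fdps, Sqle, Lss, Insig1 and Srebf2 of the mouse. They were taken by symbol from a table of 55401 annotated genes, in which each symbol had 1 row. All 7 passed the filter on low values, which left 12016 genes for testing. The first 5 encode enzymes of cholesterol synthesis, and Insig1 and Srebf2 encode proteins that control it. None of the 7 encodes a receptor or transporter that brings cholesterol into the cell, so genes of uptake were described separately, from a list.

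The RNA came from bone marrow mesenchymal stem cells (MSCs) of the C57BL/6 strain, which were purchased and not isolated for the study. There were 4 groups of 3 libraries: untreated MSCs, MSCs given TGF-β1 at 5 ng/mL, and MSCs given the same TGF-β1 dose in the culture supernatant of either M-MDSCs or G-MDSCs. TGF-β1 is a cytokine that turns MSCs towards myofibroblasts. M-MDSCs and G-MDSCs are the monocytic and granulocytic kinds of myeloid-derived suppressor cells, here grown from mouse bone marrow with GM-CSF and IL-6. Supernatant also carried the medium of those cultures, and among these samples no group had TGF-β1 in that medium without MDSCs, so products of the MDSCs and the medium cannot be told apart. What separates replicates is not stated in the sources used here, and p-values therefore measure the spread between libraries, which may be technical.

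Cells make cholesterol from acetyl-CoA through the mevalonate pathway, whose intermediates also feed protein prenylation, dolichol and ubiquinone. The pathway is controlled by SREBP2, the product of Srebf2, which is held in the endoplasmic reticulum together with its escort SCAP. When membrane sterol is high, the product of Insig1 keeps SCAP there. When sterol is low, SREBP2 moves to the Golgi apparatus, is cut by proteases, and its freed part turns on the genes of synthesis and uptake, Insig1 among them. SREBP2 activity is therefore set largely after translation, which a transcript level does not show.

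The libraries held 73977669 to 84565450 counts, and each of the 7 genes had at least 2538 counts in every library. Expression is given as FPKM, fragments scaled by the length of the exons and by the mapped reads of the library, which can be compared between genes. The 8 MSC markers examined summed to 581 to 598 FPKM in untreated cells, 500 to 513 FPKM with TGF-β1 alone, 555 to 586 FPKM with M-MDSC and 533 to 559 FPKM with G-MDSC supernatant. Of 2 genes that MSCs should lack, Kit was listed at 0 in every library without supernatant and Pecam1 was not. Kit and Pecam1 summed to 0.067 to 0.092 FPKM in untreated cells and 0.099 to 0.114 FPKM with TGF-β1 alone. Their sum was 0.117 to 0.137 FPKM with M-MDSC and 0.124 to 0.218 FPKM with G-MDSC supernatant, with neither at 0 throughout a group. Transcripts of other tissues accompanied the supernatants. The summed level of 6 kidney markers was 42.9 to 56.8 FPKM with G-MDSC supernatant and 12.1 to 78.2 FPKM with M-MDSC supernatant, against at most 0.14 FPKM without supernatant. The summed level of 6 liver markers was 62.5 to 67.7 FPKM with G-MDSC supernatant and 0.0762 to 57.3 FPKM with M-MDSC supernatant, and all 6 were at 0 without supernatant. Alb, the defining liver transcript, was at 0 in replicates 1 and 2 with M-MDSC supernatant. The 10 myeloid markers summed to 2.27 to 3.18 FPKM with TGF-β1 alone, 4.32 to 6.77 FPKM with M-MDSC supernatant, 5.63 to 8.44 FPKM with G-MDSC supernatant and 6.20 to 7.10 FPKM in untreated cells. Mpo was at 0 in every library. S100a9 was at 0 in every library without supernatant, S100a8 in every library with TGF-β1 alone, and Ptprc and Itgam in every untreated library. With either supernatant, Mpo was the only marker of the 10 at 0 throughout the group. The 10 interferon response genes summed to 70.0 to 84.4 FPKM in untreated cells, 16.4 to 19.0 FPKM with TGF-β1 alone, 333 to 352 FPKM with M-MDSC and 207 to 221 FPKM with G-MDSC supernatant. The part of these transcripts in the results was not tested, and the counts with M-MDSC supernatant are given with and without the libraries that had Alb counts. All 3 libraries with G-MDSC supernatant had them, so no comparison of that group could be made without them. The fits without them kept replicates 1 and 2 of M-MDSC supernatant. These were not free of other tissues, since kidney markers summed to at least 12 FPKM in every M-MDSC library.

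In the GRCm38 build, Hmgcs1 (ENSMUSG00000093930) spans chr13:119690379-119708260 and Idi1 (ENSMUSG00000058258) chr13:8885501-8892451, both on the plus strand. Fdps (ENSMUSG00000059743) spans chr3:89093588-89101959 on the minus strand. Sqle (ENSMUSG00000022351) at chr15:59315077-59331192, Lss (ENSMUSG00000033105) at chr10:76531588-76557138, Insig1 (ENSMUSG00000045294) at chr5:28071363-28078662 and Srebf2 (ENSMUSG00000022463) at chr15:82147181-82205379 lie on the plus strand. Their annotated overlaps were small in counts. Gm43738, which overlaps Fdps on the same strand, had at most 221 counts in a library, against 6289 to 11739 for Fdps, and Gm48342, antisense within Hmgcs1, had at most 43 against 5387 to 8036 for Hmgcs1.

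SREBP2 binds sterol regulatory elements and acts together with NF-Y, whose box reads CCAAT, and with Sp1 at GC boxes. RefSeq promoters of 5 of the 7 genes were at hand, and those of Hmgcs1, Insig1 and Lss are shown because Hmgcs1 and Insig1 changed with TGF-β1 by the test and Lss did not. Each is given 5′ to 3′ on the plus strand of GRCm38.p6, from 250 bases before the RefSeq start site up to that site or to the start of the gene in the table, whichever came first: chr13:119690101-119690350, chr5:28071162-28071362 and chr10:76531355-76531587. Capitals mark the sterol regulatory letters TCACNCCAC and the NF-Y letters CCAAT, which read ATTGG on the opposite strand.
Hmgcs1: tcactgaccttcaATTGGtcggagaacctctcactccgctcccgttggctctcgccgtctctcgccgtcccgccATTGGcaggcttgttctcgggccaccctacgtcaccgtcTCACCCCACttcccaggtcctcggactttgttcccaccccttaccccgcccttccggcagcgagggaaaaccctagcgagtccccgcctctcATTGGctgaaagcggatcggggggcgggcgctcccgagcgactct
Insig1: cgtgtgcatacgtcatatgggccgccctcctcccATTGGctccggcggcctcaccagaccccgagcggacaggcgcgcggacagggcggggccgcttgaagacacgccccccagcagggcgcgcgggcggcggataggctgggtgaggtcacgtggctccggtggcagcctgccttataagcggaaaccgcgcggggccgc
Lss: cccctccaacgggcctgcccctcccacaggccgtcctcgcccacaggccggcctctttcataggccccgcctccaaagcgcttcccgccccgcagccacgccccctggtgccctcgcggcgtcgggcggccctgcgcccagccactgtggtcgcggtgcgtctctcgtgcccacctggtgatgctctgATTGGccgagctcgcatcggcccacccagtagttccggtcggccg

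The sterol regulatory letters were searched on both strands in the 250 bases before the start site of 32851 RefSeq promoters and stood in 346 of them, or 1.05%. Of the 5 genes with a promoter, Hmgcs1 held them, as TCACCCCAC at -137 to -129 from the start site. CCAAT, found in 33.8% of all promoters, stood in the window of each of the 5, at 3 places in Hmgcs1, at 2 in Idi1 and at 1 in Lss, Insig1 and Srebf2. The GC box letters GGGCGG, found in 32.7% of all promoters, were also present in all 5. These are matches of letters in a short window, and neither a match nor its absence shows where a factor binds.

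The mean level over the 12 libraries was 23.7 FPKM for Srebf2, 22.9 for Fdps, 22.6 for Insig1, 17.9 for Sqle, 16.3 for Hmgcs1 and 12.4 for Idi1, and 3.74 FPKM for Lss. Lss, which cyclises oxidised squalene into lanosterol, was thus the lowest of the 7, at the 34.7th percentile of tested genes. Srebf2, the highest, stood at the 82.3rd percentile.

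**Figure D1:**
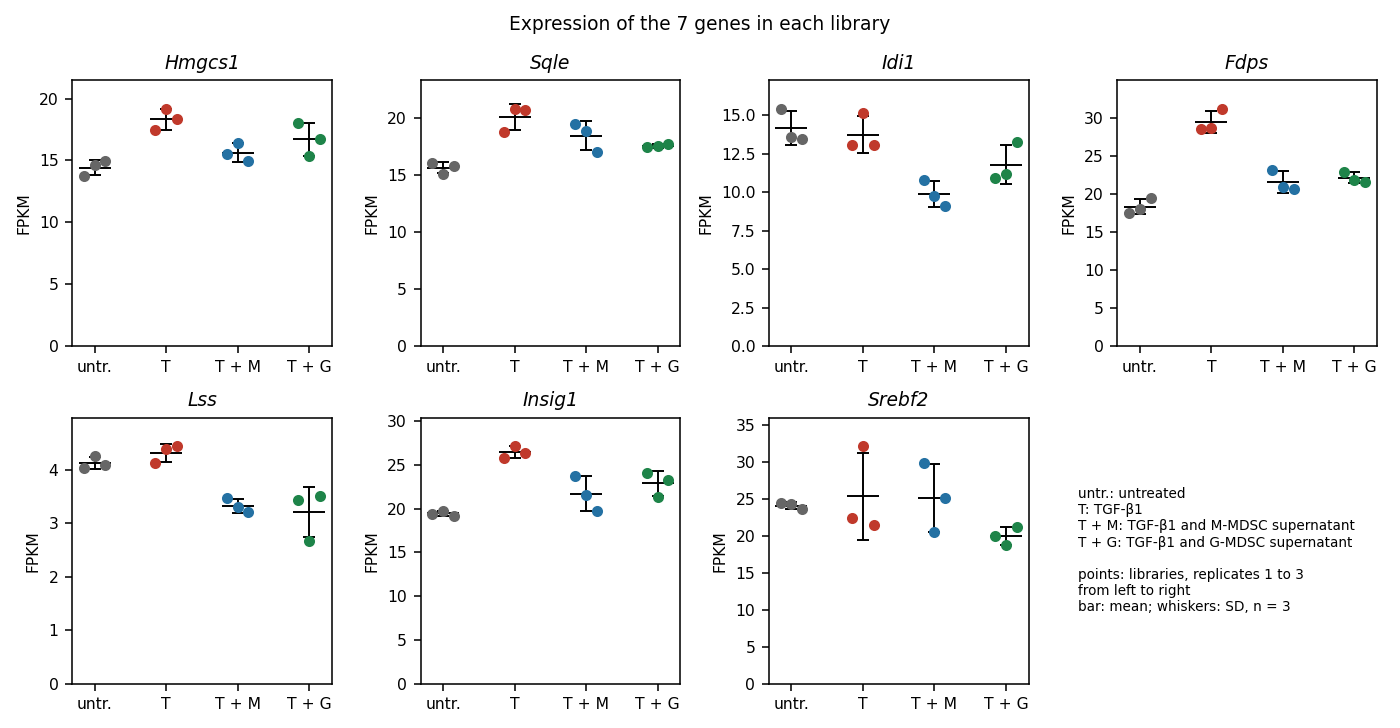
FPKM (linear axes from 0, a scale for each gene) of the 7 genes in the 12 libraries by group; points are libraries, and bars and whiskers are the mean and SD of 3 libraries. Fdps rose from a mean of 18.3 FPKM in untreated cells to 29.5 FPKM with TGF-β1 and stood at 21.6 and 22.1 FPKM with either supernatant, whereas Idi1 and Lss had their lowest means with supernatant.

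The first comparison asks how TGF-β1 alone moved these genes. Transcripts of Fdps, Insig1, Sqle and Hmgcs1 rose in TGF-β1-treated MSCs, by 1.67-fold, 1.41-fold, 1.34-fold and 1.32-fold, and none of the 7 fell. Idi1, Lss and Srebf2 did not pass the test. A gene was called at an adjusted p-value under 0.05 in edgeR's quasi-likelihood test, adjusted over all 12016 genes. By that rule, 16.1% of all tested genes were called higher with TGF-β1 and 17.9% lower, and 4 of the 7 were called higher. The study's own rule asks for a fold over 2 or under 0.5 at an unadjusted p under 0.05, and it called 0 of the 7 and 6.74% of all genes.

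Hmgcs1, the cytosolic synthase that makes HMG-CoA at the entry of the pathway, measured 13.7, 14.6 and 14.9 FPKM in the untreated libraries. It measured 17.5, 19.2 and 18.4 FPKM with TGF-β1, above every untreated library. The log2 fold change was 0.40 (SE 0.067, adjusted p = 0.000772, edgeR).

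Idi1 interconverts the 5-carbon isoprenyl units that later steps join. Its levels were 15.4, 13.6 and 13.4 FPKM in untreated cells and 13.1, 15.1 and 13.1 FPKM with TGF-β1, so the groups overlapped. The log2 difference was 0.016 with a 95% interval from -0.20 to 0.24 and an adjusted p of 0.926, and it turned to -0.039 on the scale of log2(FPKM + 1).

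Fdps makes farnesyl diphosphate, where the sterol and non-sterol branches part. It had 17.5, 18.01 and 19.4 FPKM in untreated cells and 28.5, 28.6 and 31.2 FPKM with TGF-β1. Its log2 fold change of 0.74 (SE 0.061, adjusted p = 4.48e-06, edgeR) exceeded those of 95.6% of tested genes.

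Sqle, the epoxidase that puts oxygen on squalene, had 16.1, 15.1 and 15.8 FPKM in untreated cells. With TGF-β1 it had 18.8, 20.8 and 20.7 FPKM, again with no overlap, and a log2 fold change of 0.42 (SE 0.058, adjusted p = 0.000218). Lss, the next enzyme, had 4.03, 4.26 and 4.08 FPKM untreated and 4.13, 4.39 and 4.44 FPKM with TGF-β1. The ranges overlapped, and the log2 difference was 0.12 with a 95% interval from -0.08 to 0.33 (adjusted p = 0.346, edgeR).

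Insig1 had 19.5, 19.8 and 19.2 FPKM in untreated cells and 25.8, 27.2 and 26.4 FPKM with TGF-β1, with no overlap. The log2 fold change was 0.50 (SE 0.068, adjusted p = 0.000212). Srebf2 behaved otherwise. Its untreated libraries lay close together at 24.5, 24.3 and 23.6 FPKM, while those with TGF-β1 had 22.5, 32.2 and 21.5 FPKM. Replicate 2 stood above all untreated libraries and the other TGF-β1 libraries below all of them. The log2 difference of 0.13 (95% interval -0.22 to 0.48, adjusted p = 0.578, edgeR) became -0.078 without that replicate.

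**Figure D2:**
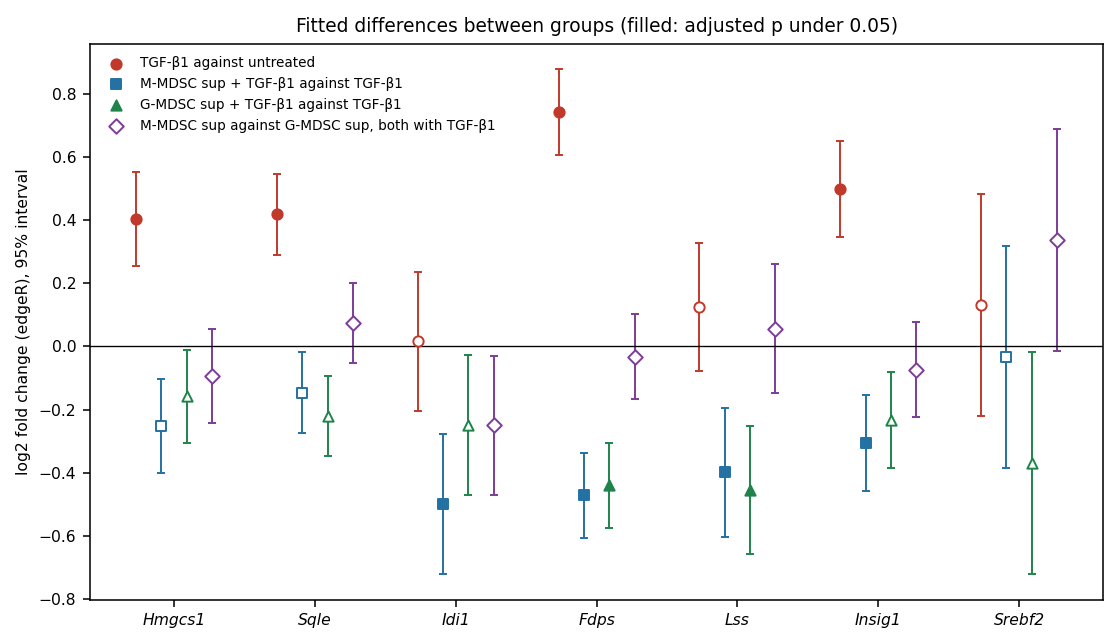
Log2 fold changes fitted by edgeR for the 7 genes in 4 comparisons, with 95% intervals; filled symbols have an adjusted p-value under 0.05. TGF-β1 raised 4 genes, every estimate for a supernatant against TGF-β1 alone lies below 0, and no symbol is filled between the supernatants.

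The second comparison asks what M-MDSC supernatant did in the presence of TGF-β1. Idi1, Fdps, Lss and Insig1 fell, to 0.71, 0.72, 0.76 and 0.81 times the level with TGF-β1 alone. All 7 estimates were below 0, but those of Hmgcs1, Sqle and Srebf2 did not pass the test. Among all tested genes 1.95% were called lower and 2.83% higher in this comparison, against 4 of 7 and 0 of 7 here. The study's rule called 0 of the 7 and 2.18% of all genes.

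Fdps came down to 23.2, 20.9 and 20.6 FPKM, below every library with TGF-β1 alone and above every untreated library. The log2 fold change was -0.47 (SE 0.061, adjusted p = 0.000922). Idi1 had 10.8, 9.74 and 9.10 FPKM, below all libraries of the groups without supernatant, and fell by 0.50 on the log2 scale (SE 0.10, adjusted p = 0.0163). Idi1 had not risen with TGF-β1, so M-MDSC supernatant took it below the untreated level, with a log2 difference of -0.48 from untreated cells (adjusted p = 0.00326, edgeR).

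Lss likewise went below its untreated level with M-MDSC supernatant, to 3.47, 3.29 and 3.21 FPKM, with a log2 fold change of -0.40 against TGF-β1 alone (SE 0.092, adjusted p = 0.0324, edgeR) and of -0.28 against untreated cells (adjusted p = 0.0386, edgeR). Insig1 had 23.8, 21.6 and 19.8 FPKM, all below the TGF-β1 libraries, and fell by 0.31 on the log2 scale (SE 0.068, adjusted p = 0.0279, edgeR).

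Hmgcs1 with M-MDSC supernatant had 15.5, 16.4 and 15.0 FPKM, below every library with TGF-β1 alone, and a log2 difference of -0.25 (SE 0.067, adjusted p = 0.0638). Sqle had 19.4, 18.9 and 17.0 FPKM, overlapping the TGF-β1 libraries, and a log2 difference of -0.15 (SE 0.058, adjusted p = 0.224, edgeR). Srebf2 was again uneven, at 29.9, 20.6 and 25.2 FPKM, and its difference of -0.03 on the log2 scale (95% interval -0.39 to 0.32) turned positive, to 0.18, without replicate 2 of the TGF-β1 group.

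The count of 4 genes called with M-MDSC supernatant leaned on single libraries. Without replicate 2 of TGF-β1, or replicate 2 or 3 of M-MDSC supernatant, 1 gene was called, and without replicate 1 or 3 of TGF-β1 or replicate 2 of the untreated cells 2 genes were called. Without replicate 1 or 2 of G-MDSC supernatant 5 genes were called, with Hmgcs1 added. Fdps was called in all 12 fits that left out a library. Idi1 lost its call without replicate 2 of TGF-β1 and without replicates 2 and 3 of M-MDSC supernatant, each in turn, and reached an adjusted p of 0.0714 at most. Insig1 lost it without those 3 libraries, the other TGF-β1 replicates or replicate 2 of the untreated cells (at most 0.111, edgeR). Lss kept it in 3 of the 12 fits, those without a library of G-MDSC supernatant, and lost it without any of the other 9 (at most 0.119, edgeR). Without the libraries that had Alb counts, replicates 1 and 2 of M-MDSC supernatant remained and 2 genes were called. They were Fdps at a log2 fold change of -0.44 (adjusted p = 0.0217, edgeR) and Lss at -0.37 (adjusted p = 0.0198, edgeR). The estimates of Idi1 and Insig1 were -0.44 (adjusted p = 0.0780, edgeR) and -0.24 (adjusted p = 0.0913, edgeR).

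The third comparison sets G-MDSC supernatant with TGF-β1 against TGF-β1 alone. Fdps and Lss fell, to 0.74 and 0.73 times the level with TGF-β1, and again all 7 estimates were below 0. Of all tested genes, 2.46% were called lower and 3.1% higher, and of the 7, 2 were lower and 0 higher. The study's rule called 0 of the 7 and 2.17% of all genes. This comparison shares its TGF-β1 libraries with the one before it.

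Fdps measured 22.9, 21.9 and 21.5 FPKM, with a log2 fold change of -0.44 (SE 0.061, adjusted p = 0.00150, edgeR). Lss measured 3.43, 2.67 and 3.51 FPKM, below all libraries without supernatant, and its log2 fold change was -0.45 (SE 0.092, adjusted p = 0.0148, edgeR). Replicate 2 was the lowest value of Lss in the series. Without replicate 2 or replicate 3 of the TGF-β1 group, Lss lost its call (adjusted p = 0.0561 and 0.0622, edgeR) and Fdps was the 1 gene still called. Without replicate 1 or replicate 3 of the M-MDSC group, which enters the fit through the shared spread, 4 genes were called, Sqle and Insig1 in addition. Sqle also passed without replicate 1 of TGF-β1 (adjusted p = 0.0325, edgeR).

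Sqle with G-MDSC supernatant had 17.4, 17.5 and 17.7 FPKM, the smallest coefficient of variation of any group of the 7 genes and below every TGF-β1 library, with a log2 difference of -0.22 that missed the threshold (adjusted p = 0.0541, edgeR). Insig1 had 24.1, 21.3 and 23.3 FPKM, also without overlap, and a log2 difference of -0.23 (adjusted p = 0.0846, edgeR). Idi1 had 10.9, 11.2 and 13.3 FPKM, replicate 3 within the TGF-β1 range, and a log2 difference of -0.25 (adjusted p = 0.220, edgeR). Hmgcs1 had 18.1, 15.4 and 16.7 FPKM, overlapping the TGF-β1 libraries, with a log2 difference of -0.16 (adjusted p = 0.248, edgeR). Srebf2 had 20.0, 18.7 and 21.3 FPKM, all below the untreated libraries and the TGF-β1 libraries, with a log2 difference from TGF-β1 of -0.37 (adjusted p = 0.258, edgeR).

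The supernatants were then set against each other. No difference between them passed the test for any of the 7 genes, and 15 of all tested genes were called by edgeR, 0.0999% higher and 0.025% lower with M-MDSC supernatant. At an unadjusted p under 0.05 the counts were 1 of the 7, Idi1, and 761 of all genes, and DESeq2 called 121 of all genes. The study's rule called 0.549% of all genes. Idi1 had 9.10 to 10.8 FPKM under M-MDSC supernatant and 10.9 to 13.3 FPKM under G-MDSC supernatant, and a log2 difference of -0.25 (95% interval -0.47 to -0.03, adjusted p = 0.737, edgeR). The intervals were -0.17 to 0.10 for Fdps, -0.24 to 0.05 for Hmgcs1, -0.05 to 0.20 for Sqle, -0.22 to 0.08 for Insig1, -0.15 to 0.26 for Lss and -0.01 to 0.69 for Srebf2. For Fdps, Hmgcs1, Sqle and Insig1 these intervals exclude differences above 0.25 on the log2 scale in either direction, whereas for Srebf2 the spread was too wide to bound the difference closely.

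Against untreated cells, the genes separated in direction. With G-MDSC supernatant, Fdps (log2 fold change 0.30), Insig1 (0.26), Hmgcs1 (0.25) and Sqle (0.20) remained higher than in untreated MSCs, and Lss was lower (-0.33), with adjusted p-values from 0.00274 to 0.0213. With M-MDSC supernatant, Sqle (0.27) and Fdps (0.27) were higher and Idi1 (-0.48) and Lss (-0.28) lower, while Insig1 (0.19, adjusted p = 0.0519, edgeR) and Hmgcs1 (0.15, adjusted p = 0.107, edgeR) did not pass. In these comparisons 16.4% of all genes were called higher with either supernatant, 18.4% lower with G-MDSC supernatant and 18.9% lower with M-MDSC supernatant. The study's rule called 6.8% and 6.98% of all genes for G-MDSC and M-MDSC supernatant, and 0 of the 7. Without replicate 2 of the untreated cells the G-MDSC count of 5 became 3, since Sqle and Lss missed the threshold (adjusted p = 0.0650 and 0.0582, edgeR). Hmgcs1 missed it without replicate 1 of either group, and Sqle without replicate 3 of G-MDSC supernatant and by limma with either pseudocount (adjusted p = 0.0560 and 0.0608). With only the groups compared, Lss missed it (adjusted p = 0.0686, edgeR) and Srebf2 passed (0.0215), and without replicate 3 of G-MDSC supernatant Idi1 passed (0.0303). The call of Lss with M-MDSC supernatant was lost without any library of the untreated or M-MDSC groups, or replicate 2 or 3 of TGF-β1 (adjusted p at most 0.113, edgeR), and also with a replicate block (0.0600) and without the FPKM filter (0.0882). Insig1 passed without replicate 3 of M-MDSC or replicate 2 of G-MDSC supernatant, with median-ratio scaling and by DESeq2 (0.0418 and 0.0288). Without the libraries that had Alb counts, the M-MDSC count of 4 became 5. These comparisons share their untreated libraries with each other and with the first.

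Ordered by level, the 4 groups took 2 forms among 6 of the genes. For Hmgcs1, Sqle, Fdps and Insig1 the TGF-β1 group had the highest mean and the untreated group the lowest, with both supernatants between. The rise and the fall around the TGF-β1 group rest on the same 3 libraries and are not independent. For Fdps the means were 29.5 ± 1.5 FPKM with TGF-β1, 22.1 ± 0.74 with G-MDSC supernatant, 21.6 ± 1.39 with M-MDSC supernatant and 18.3 ± 1.01 in untreated cells (SD, n = 3), and only the supernatant groups overlapped. For Idi1 and Lss the untreated and TGF-β1 groups overlapped and both supernatant groups had lower means, 11.8 ± 1.27 and 9.88 ± 0.87 FPKM for Idi1 with G-MDSC and M-MDSC supernatant and 3.21 ± 0.46 and 3.33 ± 0.13 FPKM for Lss.

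The same division showed in the correlations of log2(FPKM + 1) over the 12 libraries, which are descriptions across libraries of 4 groups and not tests. Hmgcs1, Sqle, Fdps and Insig1 had a Pearson r of 0.79 to 0.93 with each other. Idi1 and Lss had an r of 0.74 with each other and of -0.07 to 0.29 with those 4. Srebf2 had an r of 0.01 to 0.45 with the other 6 genes.

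**Figure D3:**
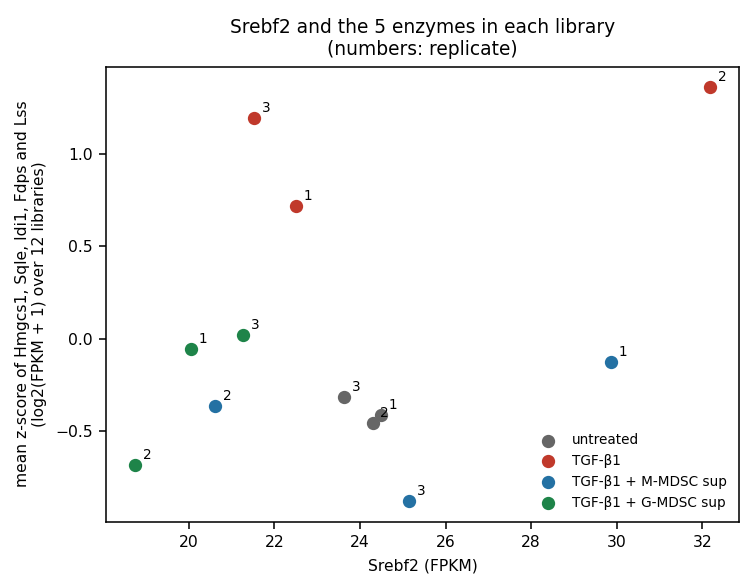
Srebf2 in FPKM (horizontal axis) against the mean z-score of log2(FPKM + 1) of Hmgcs1, Sqle, Idi1, Fdps and Lss (vertical axis, no unit) in the 12 libraries, coloured by group and numbered by replicate. The TGF-β1 libraries lie highest for the enzymes, at 0.72 to 1.36, while their Srebf2 levels run from 21.5 to 32.2 FPKM.

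Srebf2 varied more between replicates than the other genes with TGF-β1 and with M-MDSC supernatant. The coefficient of variation of Srebf2 between replicates was 1.88% in untreated cells, 6.31% with G-MDSC supernatant, 18.3% with M-MDSC supernatant and 23.2% with TGF-β1, against 5.11% for Fdps and 2.59% for Insig1 in the same TGF-β1 libraries. The 3 genes most like Srebf2 over the 12 libraries were Mir214 (r = 0.83), Crkl (0.81) and Zpr1 (0.80), none of them a gene of sterol metabolism. Mir214 ran from 0.010 to 12.7 FPKM, so its lowest values lay near 0. The 3 most like the mean z-score of the 5 enzymes were 2900026A02Rik (r = 0.93), Insyn1 (0.92) and Nsdhl (0.92), and Nsdhl itself belongs to cholesterol synthesis.

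The rest of the pathway was described from a list of 21 synthesis enzymes, the 5 above included, of which 20 were tested. With TGF-β1, 9 of the 20 rose and 0 fell, beside 16.1% and 17.9% of all tested genes, with a median log2 fold change of 0.24 against 0.00 over all tested genes; limma on log2(FPKM + 1) called 2 lower. With M-MDSC supernatant against TGF-β1 alone, 10 fell and 0 rose, beside 1.95% and 2.83% of all tested genes, 19 of 20 estimates lay below 0, and the median was -0.28 against -0.01. With G-MDSC supernatant 6 fell and 0 rose, beside 2.46% and 3.1%, all 20 estimates lay below 0, and the median was -0.27 against -0.01. DESeq2 called 10 lower with G-MDSC supernatant, and leaving out a library gave 4 to 8, the 4 without replicate 3 of TGF-β1. The count with M-MDSC supernatant was 6 without the libraries that had Alb counts, and 4 to 11 when a library was left out. It was 4 without replicate 2 and 5 without replicate 3 of M-MDSC supernatant, and 5 without replicate 2 and 6 without replicate 3 of TGF-β1.

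Several enzymes of the later, sterol-modifying steps moved in both directions as Fdps did. Cyp51, the lanosterol demethylase, rose from 18.5 to 27.5 FPKM with TGF-β1 (log2 fold change 0.63) and fell to 23.1 FPKM (-0.27) under M-MDSC and 23.0 FPKM (-0.29) under G-MDSC supernatant. Nsdhl, which takes part in removing the methyl groups at carbon 4, rose by 0.54 and fell by 0.46 and 0.36 on the log2 scale, and Msmo1, the oxidase of the same step, rose by 0.47 and fell by 0.28 and 0.28. Around Idi1, Mvd, the enzyme before it, rose with TGF-β1 (0.31) and fell with M-MDSC supernatant (-0.36), with a value of -0.30 with G-MDSC supernatant that missed the threshold (adjusted p = 0.0560, edgeR), and Pmvk, before Mvd, was at -0.03 with TGF-β1 and fell with both supernatants (-0.29 and -0.36). Fdft1, which turns the product of Fdps into squalene, was not called in any of these comparisons, with log2 differences of 0.23, 0.18 and -0.21.

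**Figure D4:**
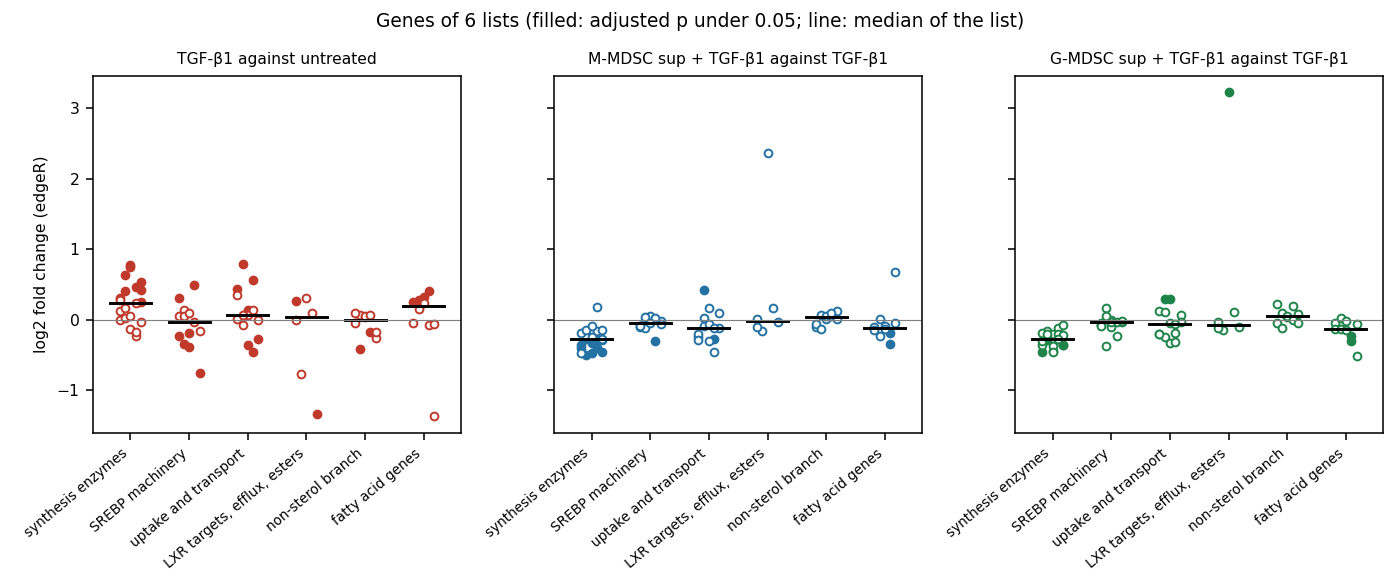
Log2 fold changes (edgeR) of the tested genes of 6 lists in 3 comparisons; each point is a gene, filled where the adjusted p-value is under 0.05, and the line is the median of the list. The median of the synthesis enzymes is 0.24 with TGF-β1, -0.28 under M-MDSC and -0.27 under G-MDSC supernatant, and those of the non-sterol branch are 0.00, 0.03 and 0.05.

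Among 13 genes of the SREBP machinery, 2 rose with TGF-β1, Insig1 and Marchf6 (0.30), and 5 fell. The first count is near the 16.1% of all tested genes that rose, and 17.9% of all fell. Insig2, which does the same work as Insig1 and has a control of its own, fell from 6.74 to 3.83 FPKM (log2 fold change -0.76), opposite to Insig1, and stayed at a mean of 3.83 FPKM with either supernatant. Erlin2 (-0.39), Erlin1 (-0.34), which bind SCAP and Insig proteins, Srebf1 (-0.23) and Scap (-0.19) were the others that fell. Insig1 was the only gene of the list called with M-MDSC supernatant against TGF-β1, and 0 were called with G-MDSC supernatant. Both counts are near the shares of all tested genes, 1.95% lower and 2.83% higher with M-MDSC and 2.46% lower and 3.1% higher with G-MDSC supernatant.

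Genes of cholesterol uptake and transport within the cell, 14 tested of 16, were called in both directions. With TGF-β1, 4 rose and 3 fell, beside 16.1% and 17.9% of all tested genes. Vldlr, a lipoprotein receptor, rose from 4.50 to 7.46 FPKM (0.78), and Mylip, which marks lipoprotein receptors for degradation, rose as well (0.57). Lipa, the lysosomal cholesteryl ester hydrolase (-0.36), and Scarb1, a receptor for high-density lipoprotein (-0.28), were among those that fell. With M-MDSC supernatant against TGF-β1 alone, 1 of the 14 rose and 1 fell, beside 2.83% and 1.95% of all tested genes. With G-MDSC supernatant 2 rose and 0 fell, beside 3.1% and 2.46%. Npc2, which carries cholesterol inside lysosomes, rose against TGF-β1 alone under M-MDSC supernatant (0.42) and under G-MDSC supernatant (0.29), Lipa rose with G-MDSC supernatant (0.29), and Stard4, a sterol carrier of the cytosol, fell with M-MDSC supernatant (-0.27).

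The non-sterol branch, which uses the product of Fdps for prenylation, dolichol and ubiquinone, had 0 of 10 genes higher and 2 lower with TGF-β1, Fnta (-0.42) and Pdss1 (-0.18), and 0 called with either supernatant against TGF-β1. Its 2 lower genes are near the 17.9% of all tested genes called lower with TGF-β1, and with so few genes called in either supernatant comparison a count of 0 is near the share of all genes as well. Of 10 tested fatty acid genes, 4 rose and 0 fell with TGF-β1, led by Fads2 (0.41) and Fads1 (0.33), beside 16.1% and 17.9% of all tested genes, and 2 fell with each supernatant, beside 1.95% with M-MDSC and 2.46% with G-MDSC supernatant: Scd1 (-0.35 with M-MDSC and -0.30 with G-MDSC supernatant) and Fads2 (-0.18 and -0.24). Of 6 tested genes of sterol efflux, esterification and sensing, Hdlbp rose (0.27) and Nceh1, a cholesteryl ester hydrolase, fell from 4.40 to 1.67 FPKM (-1.34) with TGF-β1, again near the shares of all genes. With supernatants against TGF-β1, 0 of these 6 were called with M-MDSC supernatant and 1 was higher with G-MDSC supernatant, beside 2.83% and 3.1% of all tested genes called higher.

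The share of called genes that were higher moved with the setting. The limma test on log2(FPKM + 1) changes the test, the input and the scaling at once. With TGF-β1 it was 47.3% in edgeR, with trimmed-mean or median-ratio scaling, and 34.9% in limma. With M-MDSC and G-MDSC supernatant against TGF-β1 it was 59.2% and 55.7% in edgeR, 63.2% and 59.5% with median-ratio scaling and 69.0% and 68.7% in limma. In edgeR on the same counts it reached 73.2% and 69.2% with only the groups compared and 74.3% and 71.4% without the FPKM filter, and with M-MDSC supernatant 71.5% without replicate 2 of TGF-β1. Over the alternatives tried, other than the study's rule, Fdps kept its call and direction in each of the 3 comparisons, and Hmgcs1, Sqle and Insig1 kept theirs with TGF-β1.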

How the data were processed

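Poly(A) RNA of 12 libraries was sequenced in pairs. Per the labels and the study's methods, the authors aligned reads to GRCm38 with HISAT2 2.0.4 and assembled transcripts with StringTie 1.3.4d. The deposited table holds raw read counts per gene, and the tool that made the counts is not given in the sources used here. Beside them stands FPKM as the authors computed it, with 0.0001 in place of 0. Of nonzero counts up to 12, 44.3% are multiples of 4, so counts divided by 4 were tried.

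A gene was tested, on its counts, where 3 or more libraries had an FPKM of 1 or higher, with edgeR 4.0.16 in R 4.3.3. The 4 groups stood in a single fit with scaling by trimmed means of M-values (factors 0.978 to 1.03), the quasi-likelihood F test was two-sided, with Benjamini-Hochberg adjustment over every tested gene. Intervals are 95%. The test was checked on simulated data. Alternatives were median-ratio scaling, DESeq2 1.42.0, limma 3.58.1 on log2(FPKM + 1) and log2(FPKM + 0.1), no filter, only the groups compared, a replicate block, the study's call rule and leaving out each library. Leaving out the libraries with Alb counts was added after the data were seen.

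The genes, lists and tests were chosen with earlier results of these data known. All 7 genes were named, and from each list up to 3 called genes in each direction and the pathway neighbours of the 7. Some genes outside the 7 are counted in the lists and not reported singly. Promoters were taken from RefSeq. Python 3.11.15, pandas 2.3.3 and matplotlib 3.10.9 were used for tables and plots.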

Additional observations from a re-analysis of the deposited data

How the results depend on the processing

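With a fold above 2 or below 0.5 and an unadjusted p under 0.05 as the rule, 0 of the 7 genes were called in each comparison. With TGF-β1 against untreated cells, the other alternatives gave 4, as did leaving out any library. With M-MDSC supernatant against TGF-β1, 4 genes became 2 with a replicate block, without the FPKM filter, by limma on log2(FPKM + 0.1), with only the groups compared and without the libraries with Alb counts, and 1 to 5 with 1 library left out. With G-MDSC supernatant against TGF-β1, 2 became 4 by DESeq2, 1 with only the groups compared and 1 to 4 with 1 library left out. Against untreated cells, leaving out 1 library gave 3 to 5 genes with M-MDSC and 3 to 5 with G-MDSC supernatant, against 4 and 5.

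Directions turned for small differences only. Idi1 with TGF-β1 was -0.039 and -0.042 by limma with a pseudocount of 1 and 0.1, and -0.060 to 0.068 with 1 library left out. Over fits with 1 library left out, Srebf2 ranged from -0.078 to 0.23 with TGF-β1, from -0.18 to 0.18 with M-MDSC supernatant against TGF-β1 and from -0.043 to 0.22 against untreated cells. Between supernatants, Fdps ranged from -0.088 to 0.0011 and Lss from -0.060 to 0.13.

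Replicate numbers did not pair the libraries: residuals of same-numbered libraries correlated at -0.0038 over 18 pairs and others at 0.0020 over 36. The block moved no other call count among the 7 by over 1.5 times. Over all genes, the 574 called with M-MDSC supernatant against TGF-β1 became 351 with only the groups compared 355 without TGF-β1 replicate 2 and 319 without the libraries with Alb counts, and the 15 between supernatants became 121 by DESeq2, 38 and 16 by limma with a pseudocount of 1 and 0.1, 41 with only the groups compared, 8 with the block and 9 to 47 with 1 library left out. The causes of these changes were not tested.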
